A study of Arabidopsis thaliana with 12 samples.

Results

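The CRK family, the cysteine-rich receptor-like kinases of Arabidopsis thaliana, was followed in leaf messenger RNA of 4 genotypes. Its members were taken as a fixed list of 42 loci, AT1G19090 (CRK1) to AT5G40380 (CRK42), by a rule that uses no measured value. Of these, 41 had a row among the 32833 genes of the expression table, and AT4G11500, annotated as a transcribed pseudogene, is not analysed here. A gene was tested where at least 3 of the 12 libraries held at least 1 FPKM, which 33 members and 19110 genes in all did. FPKM scales the fragments counted for a gene by transcript length and library size, so levels can be compared between genes.

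The wild type (WT) was Columbia. The double mutant, crwn1;4, has knock-outs of CRWN1 and CRWN4. The pnet2_a triple mutant, crwn1;4 pnet2_a, is this double mutant with a CRISPR mutation of PNET2_A, and the pnet2_b triple mutant, crwn1;4 pnet2_b, is the double mutant with one of PNET2_B. They are called the pnet2_a triple and the pnet2_b triple below. All 3 mutant genotypes therefore carry the CRWN1 and CRWN4 knock-outs, and no genotype had a pnet2 mutation alone. CRWN proteins build a lamina-like layer inside the plant nuclear envelope, and PNET2 proteins sit in the inner nuclear membrane. Each genotype had 3 libraries of untreated leaves. Plant age is given as 3 weeks in the titles and as 4 weeks in the protocol. The labels do not say whether the 3 libraries came from separately grown plants, or how many mutant lines were used, so the tests reflect variation between libraries that may be technical.

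CRK proteins carry an extracellular region with repeats of a cysteine motif (the DUF26 domain), 1 membrane-spanning stretch and a kinase domain inside the cell. They belong to the receptor-like kinases of the plant surface and are known for roles in pathogen defence, responses to reactive oxygen species outside the cell, and cell death. Several CRK genes are known to be induced by salicylic acid, the hormone of defence against biotrophic pathogens. The RefSeq models gave a protein for 40 of the 41 members in the table, with a median length of 661 residues. In 36 of them the motif of cysteines spaced by 8 and 2 residues occurred 2 times, the arrangement that defines the family. CRK17 (1001 residues) held 4 copies, CRK23 3, and CRK24 and CRK27 1 each. CRK9, with 265 residues, is too short to hold a kinase domain.

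The family is mostly on chromosome 4, with 37 of the 42 loci. In the TAIR10.1 assembly, 20 members lie side by side from CRK5 (AT4G23130) to CRK24 (AT4G23320) over 74.2 kb, at chr4:12117491-12191704, and this run is called the tandem array here. Another group, CRK36 (AT4G04490) to CRK40 (AT4G04570), lies at chr4:2231717-2292965, and another, CRK30 (AT4G11460) to CRK34 (AT4G11530), at chr4:6963521-6989793. Over the 18 pairs of array neighbours whose coding sequences were aligned, identity was 65.9% to 90.2%, with a median of 69.6%, and CRK19 and CRK20 were the closest pair. Of the 50-base stretches in exons, 21.95% in CRK6 and 16.48% in CRK8 had an exact match elsewhere in the nuclear genome, mostly in each other. The shares were 15.36% in CRK13 and 16.15% in CRK22, which also match each other. In 15 members no such match was found. How the authors assigned reads that fit 2 copies is not given in the sources used here, so the values of these pairs are less certain. Some members also overlap on the genome. CRK16 and CRK17 share 1190 bases and CRK28 and CRK29 share 470 bases on the same strand, and CRK10 and CRK11 share 32 bases on opposite strands. Reads in the shared part cannot be given to 1 gene from the position alone, and the strand setting of the counting is not given.

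Promoters are shown because WRKY factors, which bind a DNA core TTGAC (the W-box), and TGA factors, which bind TGACG, are the textbook regulators of salicylic acid genes. The 300 bases before each annotated start were read from TAIR10.1 with RefSeq gene models, on the strand of the gene and 5′ to 3′, with TTGAC and TGACG on either strand in capitals. CRK6 (chr4:12121069-12121368, plus strand) and CRK7 (chr4:12125364-12125663, plus strand) are the members with the largest rises below. CRK29 (chr4:11405236-11405535, minus strand) passed no test, and its window overlaps the gene AT4G03065. The window of CRK28, another such member, overlaps CRK29 and is not shown. CRK11 (chr4:12143859-12144158, minus strand) and CRK21 (chr4:12180937-12181236, minus strand) were picked after their values were seen, as the promoter with the most copies of TTGAC and as that of a gene that fell.
CRK6: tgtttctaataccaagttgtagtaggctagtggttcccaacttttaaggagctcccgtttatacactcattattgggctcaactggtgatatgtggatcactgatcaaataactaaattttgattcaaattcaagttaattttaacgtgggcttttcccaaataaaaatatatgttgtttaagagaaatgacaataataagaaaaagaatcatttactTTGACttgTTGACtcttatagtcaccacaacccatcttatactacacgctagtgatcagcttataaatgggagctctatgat
CRK7: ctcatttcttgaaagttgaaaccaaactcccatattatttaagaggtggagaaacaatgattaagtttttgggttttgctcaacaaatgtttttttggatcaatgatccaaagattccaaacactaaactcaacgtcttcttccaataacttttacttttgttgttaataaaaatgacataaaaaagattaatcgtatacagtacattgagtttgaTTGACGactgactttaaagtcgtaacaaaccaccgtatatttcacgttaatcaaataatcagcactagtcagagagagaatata
CRK29: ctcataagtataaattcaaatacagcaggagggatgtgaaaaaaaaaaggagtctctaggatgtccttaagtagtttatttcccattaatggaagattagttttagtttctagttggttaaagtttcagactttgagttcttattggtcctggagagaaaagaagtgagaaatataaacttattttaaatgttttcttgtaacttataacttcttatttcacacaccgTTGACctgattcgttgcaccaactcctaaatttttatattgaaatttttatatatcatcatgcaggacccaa
CRK11: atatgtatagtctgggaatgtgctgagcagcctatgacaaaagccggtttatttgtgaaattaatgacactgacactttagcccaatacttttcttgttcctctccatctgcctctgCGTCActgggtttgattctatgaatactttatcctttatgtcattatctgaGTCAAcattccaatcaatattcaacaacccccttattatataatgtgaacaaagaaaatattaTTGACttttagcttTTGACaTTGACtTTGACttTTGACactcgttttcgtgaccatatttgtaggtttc
CRK21: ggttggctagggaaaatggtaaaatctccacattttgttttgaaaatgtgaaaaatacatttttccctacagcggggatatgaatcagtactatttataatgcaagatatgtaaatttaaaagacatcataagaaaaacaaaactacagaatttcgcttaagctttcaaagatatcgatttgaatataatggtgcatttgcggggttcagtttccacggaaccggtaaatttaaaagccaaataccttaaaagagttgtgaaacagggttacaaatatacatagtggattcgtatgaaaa
The core TTGAC occurred in 31 of 41 CRK promoters (75.6%), against 50.4% of the 27443 promoters read the same way. It occurred at least 2 times in 46.3% of CRK promoters, against 17.9% of all. The longer forms TTGACC or TTGACT, which overlap the core, were found in 63.4% of CRK promoters and 32.3% of all, and TGACG in 34.1% and 21.3%. CRK11 held 6 copies of TTGAC, a number reached or passed by 13 promoters in all (0.047%). Of the 23 members that rose in both triple mutants, 19 (82.6%) held the core, and of the 8 members too low to test 7 (87.5%) did. Of the 2 that fell 1 did, and of the 8 other tested members 4 (50.0%) did. The difference between these groups was not tested. The windows of CRK15, CRK16, CRK24, CRK25, CRK26, CRK28, CRK29, CRK34 and CRK40 overlap another gene. Such windows were left in the shares of CRK promoters and of all promoters. CRK12, CRK13, CRK19 and CRK40 rose without a TTGAC in this window. These are matches of letters in a window, which do not show binding, and array members share descent, so they are not independent of each other.

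The genes targeted in crwn1;4 were low in the genotypes labelled as mutant for them. CRWN1 was at 12.4 ± 0.949 FPKM in WT (SD, n = 3) and 1.67 to 1.87 FPKM on average in the 3 mutant genotypes, and CRWN4 at 7.36 ± 0.967 FPKM in WT and 1.26 to 1.55 FPKM. No locus is paired with PNET2_A or PNET2_B in the labels or the reference, so those mutations were not checked. Library totals were 622263 to 669711 FPKM, and sequencing depth is unknown because FPKM values do not carry it. The median gene changed by 0.01 in the double mutant against WT, by 0.11 in the pnet2_a triple against the double mutant and by 0.23 in the pnet2_b triple against the double mutant, all on the log2(FPKM + 1) scale on which every change below is given. That scale understates changes of genes with low values. Mesophyll markers had a median summed level of 23160.0 FPKM in WT, 22035.9 in double mutant leaves, 18208.0 in the pnet2_a triple and 15860.8 in the pnet2_b triple, and 4 of 4 fell in each triple mutant against the double mutant, though 1 and 2 of 4 did after quantile normalization. Senescence markers had summed levels of 6.17 to 10.6 FPKM in WT, 9.03 to 14.3 in the double mutant, 56.0 to 71.5 in the pnet2_a triple and 67.9 to 77.5 in the pnet2_b triple, and 4 of 4 rose in each triple mutant, or 3 of 4 under median-ratio scaling or quantile normalization. One of these, SAG12, passed the filter only through triple mutant libraries. Phloem markers summed to 74.1 to 75.6 FPKM in the pnet2_a triple and 88.2 to 126.0 FPKM in the other 9 libraries, and 1 of 3 fell for pnet2_a. Epidermis markers summed to 206.3 to 220.2 FPKM in the pnet2_a triple and 207.2 to 262.5 FPKM in the others, and 2 of 3 fell for pnet2_a. Xylem markers summed to 13.0 to 25.6 FPKM over the 12 libraries. For pnet2_b 0 of 3 phloem and 0 of 3 epidermis markers fell, but 1 and 2 did under median-ratio scaling or quantile normalization, under which the 1 rise of a xylem marker was also lost. Guard cell markers ran from 26.8 to 28.1 FPKM in WT, 22.1 to 24.7 in the double mutant, 14.1 to 17.4 in the pnet2_a triple and 17.2 to 19.6 in the pnet2_b triple. Of the root markers PLT1 and RHD6 were at 0 throughout and SCR stood at 7.12 to 10.5 FPKM. Flower markers summed to at most 5.73 FPKM and seed markers to at most 0.691 FPKM. The part of these marker changes in the CRK results was not tested, and in whole leaves fewer cells of a type and less RNA per cell cannot be told apart.

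**Figure D1:**
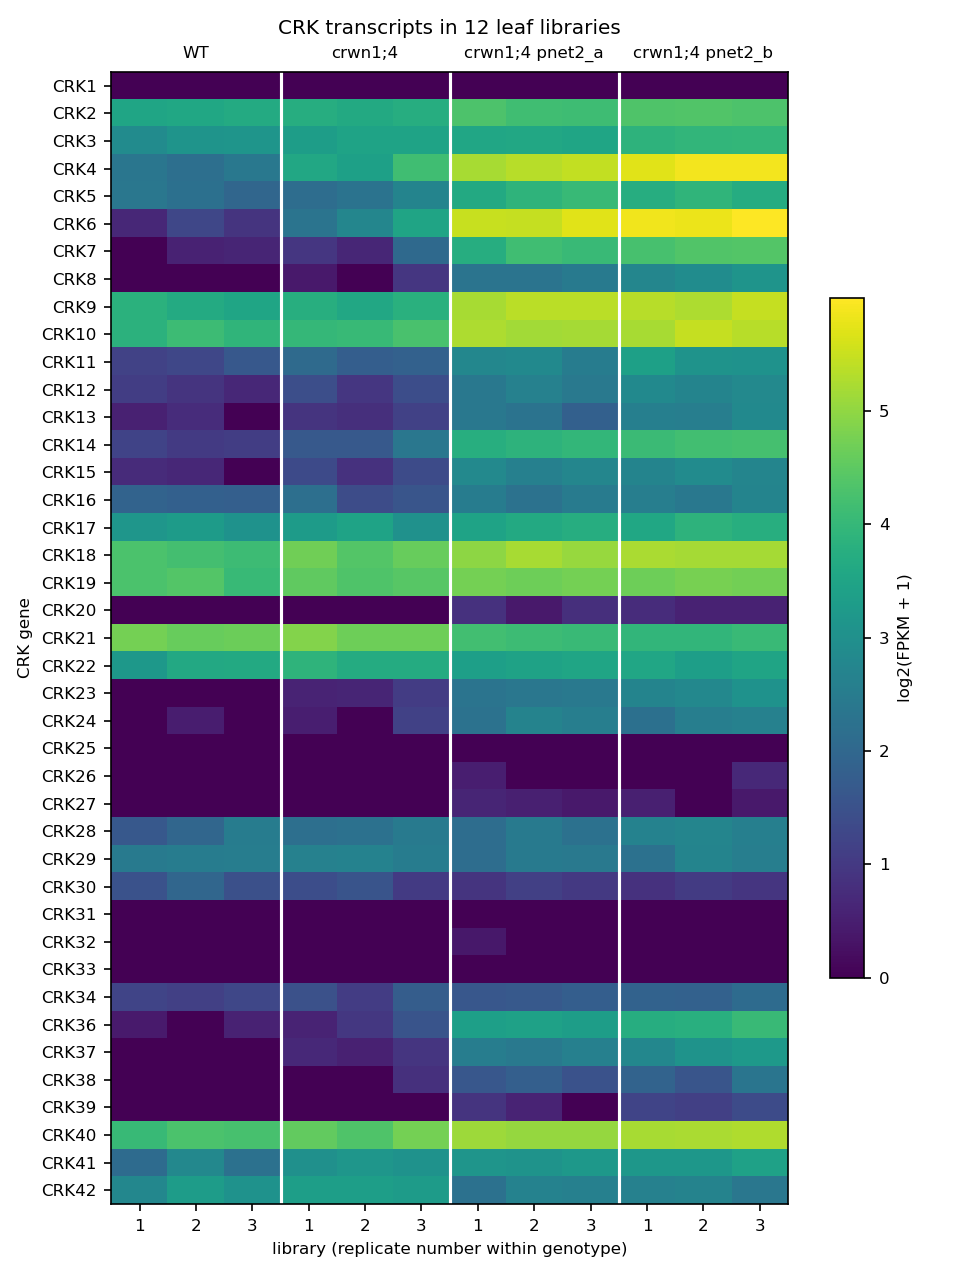
Level of the 41 CRK genes of the table in each of the 12 libraries, as log2(FPKM + 1) by colour, with genes in rows and libraries in columns grouped by genotype. CRK4 and CRK6 go from low values in WT to the brightest rows in the triple mutants, CRK21 goes the other way, and CRK1, CRK25, CRK31 and CRK33 stay at 0.

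Wild-type leaves held CRK transcripts at very unequal levels. The family summed to 173.7, 188.8 and 175.5 FPKM in the 3 WT libraries, and 11 or 12 members reached 5 FPKM in each. CRK21 (AT4G23290) led with 24.3 ± 1.43 FPKM (SD, n = 3), followed by CRK19 at 18 ± 2.23, CRK18 at 17.4 ± 1.28, CRK40 at 17.4 ± 1.84 and CRK10 at 14.6 ± 1.44 FPKM. CRK19, CRK18 and CRK40 lay within each other's SD. CRK9, CRK2 and CRK22 followed at 11.7 ± 1.37, 11.0 ± 0.581 and 10.3 ± 1.92 FPKM. CRK2 is known to act on the NADPH oxidase RBOHD, which makes reactive oxygen species outside the cell. CRK8, CRK23, CRK37, CRK38 and CRK39 were listed at 0 in every WT library.

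The family total differed between the genotypes, and is given as a description without a test. It was 179.3 ± 8.23 FPKM in WT, 232.2 ± 19.3 in double mutant leaves, 437.1 ± 14.1 in the pnet2_a triple and 512.4 ± 20.5 in the pnet2_b triple (SD, n = 3 each), and no library of one genotype overlapped another. The tandem array made up 116.2 ± 6.1 FPKM of it in WT, 144.6 ± 11.4 in double mutant leaves, 296.1 ± 12 in the pnet2_a triple and 333.2 ± 11.1 in the pnet2_b triple. In the pnet2_b triple the leading members were CRK6 at 58.3 ± 3.76 FPKM and CRK4 at 56.0 ± 3.39 FPKM, which did not differ beyond their spread. CRK9, CRK10, CRK40 and CRK18 followed at 39.9 ± 2.91, 39.7 ± 3.38, 36.7 ± 0.92 and 35.7 ± 0.889 FPKM, and CRK21 stood at 14.9 ± 0.677 FPKM.

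The first comparison asked how loss of CRWN1 and CRWN4 touched the family. In the double mutant against WT, 8 of the 33 members tested rose and none fell at an adjusted p below 0.05 by limma with Benjamini-Hochberg adjustment over all 19110 genes. Over all genes tested 2.41% rose and 0.591% fell. The members that rose were CRK3, CRK4, CRK6, CRK14, CRK18, CRK23, CRK37 and CRK41. Of these, CRK23 and CRK37 passed the filter only through triple mutant libraries. Of the 23 members that passed it in WT and double mutant libraries alone, 6 rose (26.1%) and 0 fell. All genes kept in that way rose in 2.35% and fell in 0.631%. At an unadjusted p below 0.05 the count over the 33 members was 18 up and 0 down. At that level 1973 of all 19110 genes were up and 1341 down. The median change was 0.35 for the 33 and 0.25 for the 23 of them that passed the filter in WT and double mutant libraries alone, against 0.01 over all genes. In a fit on the 6 libraries of WT and the double mutant alone none of the 8 passed, with 12 up and 0 down at an unadjusted p below 0.05 and a smallest adjusted p of 0.0539 by limma. Over all 19110 genes that fit gave 1590 up and 1028 down at the same unadjusted level.

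CRK6 (AT4G23140), known with its neighbour CRK7 for protection against oxidative stress outside the cell and as a gene induced by salicylic acid, moved most. It stood at 0.582, 1.41 and 0.859 FPKM in the WT libraries and at 3.95, 5.68 and 10.3 FPKM in those of the double mutant. All 3 mutant libraries were above all 3 WT libraries, and the third was the highest. The mean was 6.98-fold that of WT, and the log2 change was 1.91 ± 0.226 (SE, limma adjusted p = 0.000343). CRK4 (AT3G45860), whose overexpression is known to trigger cell death, rose from 4.09, 3.55 and 4.26 FPKM to 11.1, 9.66 and 16.8 FPKM. That was 3.16-fold in the means and 1.41 ± 0.146 in log2 (SE, limma adjusted p = 0.000123), again without overlap and with the third library highest.

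CRK41 (AT4G00970) stood at 3.25, 5.9 and 3.73 FPKM in WT and 6.99, 7.91 and 7.29 FPKM in the double mutant, a log2 change of 0.70 ± 0.15 (SE, limma adjusted p = 0.0215). The WT libraries were spread more widely than the mutant ones but stayed below them. CRK3 (AT1G70530) stood at 6.45, 7.54 and 7.66 FPKM in WT and 9.07, 10.1 and 10.2 FPKM in the double mutant, a log2 change of 0.39 ± 0.088 (SE, limma adjusted p = 0.0271). CRK18 (AT4G23260) was more abundant, at 18.7, 17.4 and 16.1 FPKM in WT and 25, 20.1 and 23.2 FPKM in the double mutant, and rose by 0.37 ± 0.091 (SE, limma adjusted p = 0.0429). Its groups were separate, but the nearest libraries of the 2 groups, at 18.7 and 20.1 FPKM, lay close together. The other 3 rises were smaller in level. CRK14 (AT4G23220) went from 1.3, 1.02 and 1.12 FPKM to 2.18, 2.21 and 4.17 FPKM (log2 change 0.81, limma adjusted p = 0.0129). CRK23 (AT4G23310) and CRK37 (AT4G04500), at 0 in WT, reached 0.509 to 1.09 FPKM and 0.475 to 0.894 FPKM. Their calls were lost in 4 and 6 of 22 alternative analyses.

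A single library weighed on this comparison. The third double mutant library had the highest value of its genotype for 20 of the 33 members, and its family total was 251.5 FPKM against 232.2 and 213.0 FPKM in the other two. Without it 3 members rose in the double mutant against WT, and without the first WT library 4 did. CRK18 was lost from the calls in 15 of 22 alternative analyses.

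With pnet2_a added to the double mutant, most of the CRK genes tested changed. In the pnet2_a triple against the double mutant, 23 of 33 members rose and 2 fell by limma, and 16 of the rises were at least 2-fold on the log scale used. Over all genes tested 22.9% rose and 9.2% fell, and 818 of 19110 rose at least 2-fold. Of the 33 members, 10 passed the filter only because of triple mutant libraries (CRK7, CRK8, CRK13, CRK15, CRK23, CRK24, CRK36, CRK37, CRK38 and CRK39), so their rise is partly built into the selection. Of the 23 members that passed in WT and double mutant libraries alone, 14 rose and 2 fell, or 60.9% and 8.7%. Rises of at least 2-fold numbered 7 among these 23 and 546 among the 17904 genes kept in that way. All genes kept in that way rose in 21.7% and fell in 9.81%, so the share of falls was near that of all genes. The median change was 0.49 for these 23 members and 0.10 for all genes kept in that way, and with the other 10 members included it was 0.81.

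With pnet2_b added to the double mutant, 26 of 33 members rose and 2 fell by limma, with 18 rises of at least 2-fold. Over all genes tested 38.8% rose and 8.63% fell, and 1134 of 19110 rose at least 2-fold. Of the 23 members that passed without the triple mutant libraries, 16 rose and 2 fell (69.6% and 8.7%), against 38.0% and 9.2% of all genes kept that way. Their median change was 0.63, against 0.21 for all genes kept that way, and it was 1.24 with the other 10 included. Rises of at least 2-fold numbered 8 among these 23 members and 779 among the 17904 genes kept that way. Median-ratio scaling, which centres the median gene near 0, gave 21 rises and 3 falls for pnet2_a and 23 and 4 for pnet2_b. Quantile normalization gave 21 and 4, and 23 and 5. Over all 19110 genes median-ratio scaling gave 2976 rises and 2770 falls for pnet2_a and 3498 and 3426 for pnet2_b. For quantile normalization the counts over all genes were 2666 and 3086, and 3234 and 3787. Median-ratio scaling took the share of rises among the calls over all genes from 71.3% to 51.8% for pnet2_a and from 81.8% to 50.5% for pnet2_b. Both triple mutants were compared with the same 3 double mutant libraries, so their values are given side by side and not as 2 separate lines of evidence.

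**Figure D2:**
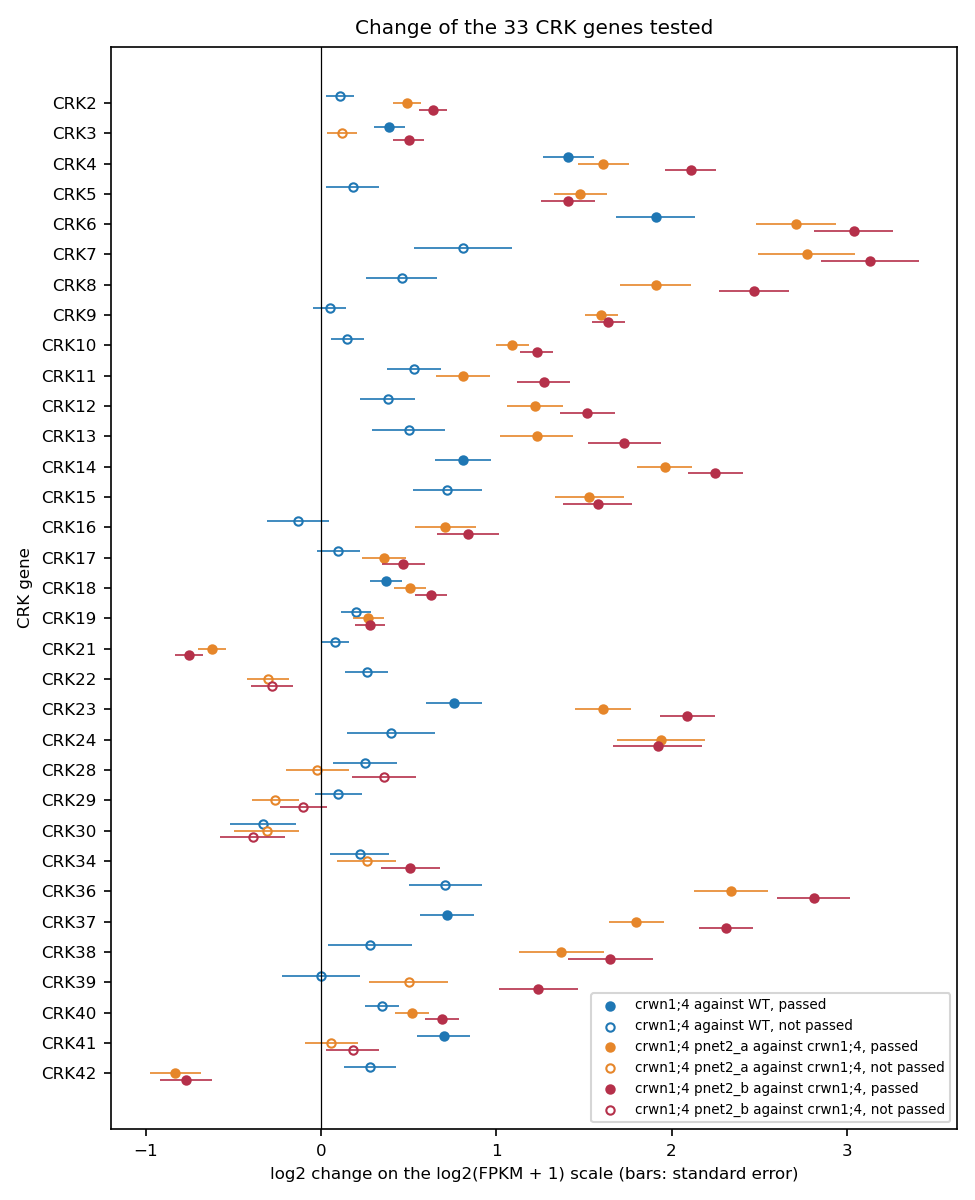
Log2 change with its standard error for the 33 CRK genes tested in the double mutant against WT, the pnet2_a triple against the double mutant and the pnet2_b triple against the double mutant. Filled points passed an adjusted p of 0.05. CRK6 and CRK7 lie farthest to the right in the triple mutant comparisons and CRK6 and CRK4 in the double mutant against WT, and CRK21 and CRK42 are the filled points left of 0.

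CRK6 and CRK7 headed the rises in the triple mutants, though CRK7 passed the filter only through triple mutant libraries. CRK6 reached 43.8, 42.9 and 51.9 FPKM in the pnet2_a triple and 56.8, 55.5 and 62.6 FPKM in the pnet2_b triple, each far above the highest double mutant library at 10.3 FPKM. Its means were 6.96-fold and 8.78-fold those of the double mutant, with log2 changes of 2.71 and 3.04 (SE 0.226, limma adjusted p = 1.09e-06 and 1.99e-07). CRK7 (AT4G23150) stood at 0.0, 0.5 and 0.528 FPKM in WT and 0.922, 0.551 and 3.13 FPKM in the double mutant, which did not pass (log2 change 0.81, limma adjusted p = 0.147). In the pnet2_a triple it reached 12.2, 16.7 and 15.8 FPKM and in the pnet2_b triple 18.1, 19.7 and 19.8 FPKM. No library overlapped the double mutant, and the log2 changes were 2.77 and 3.13 (SE 0.279, limma adjusted p = 5.63e-06 and 9.28e-07). The promoters of both genes are printed above, CRK6 with 2 copies of TTGAC and CRK7 with 1 that runs into TGACG.

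CRK8 (AT4G23160), the next gene in the array and the one that shares sequence with CRK6, was listed at 0 in WT and stood at 0.339, 0.0 and 0.932 FPKM in double mutant leaves. It reached 3.95, 3.95 and 4.56 FPKM in the pnet2_a triple and 5.74, 6.54 and 7.62 FPKM in the pnet2_b triple, with log2 changes of 1.91 and 2.47 (SE 0.202, limma adjusted p = 8.58e-06 and 4.44e-07). Like CRK7, it passed the filter only through triple mutant libraries. CRK9 (AT4G23170), the short member, had overlapping levels in WT and the double mutant. It stood at 13.2, 11.6 and 10.4 FPKM in WT and 12.5, 11.0 and 12.9 FPKM in the double mutant, groups that overlapped, and then at 35.8, 40.6 and 40.3 FPKM in the pnet2_a triple and 39.6, 37.1 and 42.9 FPKM in the pnet2_b triple. Its change was 0.05 in the double mutant against WT, and 1.60 and 1.64 in the triple mutants (SE 0.095, limma adjusted p = 1.52e-07 and 3.71e-08).

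CRK5, CRK10 and CRK11, like CRK6, are known as genes that salicylic acid induces. CRK5 (AT4G23130), whose overexpression is also known to trigger cell death, stood at 4.21, 3.65 and 2.94 FPKM in WT and 3.43, 3.9 and 5.46 FPKM in the double mutant. It reached 11.4, 14 and 15.3 FPKM in the pnet2_a triple and 12.3, 14.2 and 12 FPKM in the pnet2_b triple, with log2 changes of 1.48 and 1.41 (SE 0.152, limma adjusted p = 6.83e-06 and 5.37e-06). WT and the double mutant overlapped, and both triple mutants lay above them and overlapped each other. CRK10 (AT4G23180) stood at 13.4, 16.2 and 14.1 FPKM in WT, 15.0, 15.5 and 18.4 FPKM in double mutant leaves, 37.1, 34.7 and 35.3 FPKM in the pnet2_a triple and 36.2, 43.0 and 39.9 FPKM in the pnet2_b triple. It rose by 1.09 and 1.23 (SE 0.094, limma adjusted p = 1.48e-06 and 2.37e-07). CRK11 (AT4G23190), with 6 copies of TTGAC in its promoter, went from 2.75 ± 0.376 FPKM in the double mutant to 5.6 ± 0.765 and 8.06 ± 1.26 FPKM (SD, n = 3), log2 changes of 0.81 and 1.27. Whether the number of copies goes with the size of a rise was not tested.

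Further along the array, CRK14 reached 12.6, 13.7 and 14.6 FPKM in the pnet2_a triple and 15.9, 17.0 and 17.6 FPKM in the pnet2_b triple, all above its double mutant maximum of 4.17 FPKM. The log2 changes were 1.96 and 2.25 (SE 0.158, limma adjusted p = 8.17e-07 and 1.24e-07). CRK15 (AT4G23230) stood at 0.677, 0.592 and 0.0 FPKM in WT, 1.54, 0.804 and 1.6 FPKM in double mutant leaves, 6.01, 5.1 and 5.75 FPKM in the pnet2_a triple and 5.51, 6.46 and 5.61 FPKM in the pnet2_b triple. Its log2 changes in the triple mutants were 1.53 and 1.58, and those groups overlapped each other. CRK23 reached 3.94, 4.17 and 4.39 FPKM in the pnet2_a triple and 5.46, 5.97 and 7.33 FPKM in the pnet2_b triple (log2 changes 1.61 and 2.09). CRK12 (AT4G23200) and CRK13 (AT4G23210), the latter known to raise salicylic acid and resistance when overexpressed, rose by 1.22 and 1.23 in the pnet2_a triple and by 1.52 and 1.73 in the pnet2_b triple. CRK24 (AT4G23320) rose by 1.94 and 1.92 from 0.547 ± 0.617 FPKM in the double mutant (SD, n = 3). Of the genes in this stretch, CRK13, CRK15, CRK23 and CRK24 passed the filter only through triple mutant libraries.

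CRK18 reached 30.3, 36.2 and 32.3 FPKM in the pnet2_a triple and 36.8, 35.3 and 35.2 FPKM in the pnet2_b triple, above its 20.1 to 25 FPKM in the double mutant, and rose by 0.51 and 0.63 (SE 0.091, limma adjusted p = 0.000621 and 7.17e-05). The log2 changes of CRK16 to CRK19 were below those of every member from CRK5 to CRK15. CRK16 (AT4G23240) rose by 0.71 and 0.84, CRK17 (AT4G23250) by 0.36 and 0.47, and CRK19 (AT4G23270) by 0.27 and 0.28. CRK16 and CRK17 share bases, AT4G23271 overlaps CRK19 on the opposite strand, and the changes of CRK17 and CRK19 no longer passed for either triple mutant under median-ratio scaling or quantile normalization. CRK19 and CRK20 (AT4G23280) are both known to trigger cell death when overexpressed. CRK20 was at 0 in WT and the double mutant and at 0.323 to 0.796 FPKM in the 6 triple mutant libraries, too low to test.

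Near the end of the array 1 gene fell. CRK21, the most abundant member in WT, stood at 25.9, 23.1 and 23.9 FPKM in WT, 28.2, 24.5 and 24.3 FPKM in double mutant leaves, 17.1, 16.3 and 15.7 FPKM in the pnet2_a triple and 14.4, 14.5 and 15.6 FPKM in the pnet2_b triple. All 6 triple mutant libraries were below all 6 others. The gene fell by 0.62 and 0.75 on the log2 scale (SE 0.08, limma adjusted p = 4.8e-05 and 4.71e-06), and its promoter held neither motif. CRK22 (AT4G23300), its neighbour on the other strand, stood at 13.8, 11.8 and 11.8 FPKM in double mutant leaves, 9.47, 9.88 and 10.4 FPKM in the pnet2_a triple and 10.7, 9.18 and 10.3 FPKM in the pnet2_b triple. Changes of -0.30 and -0.28 did not pass (limma adjusted p = 0.0717 and 0.0666), although both did under median-ratio scaling and quantile normalization.

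Counted together, 17 of the 19 array members tested rose in each triple mutant against the double mutant by limma, CRK21 fell and CRK22 did not pass. Over all genes tested 22.9% rose for pnet2_a and 38.8% for pnet2_b. Of the 19, 6 passed the filter only through triple mutant libraries. Of the other 13, 11 rose and 1 fell in each triple mutant, with median changes of 0.81 and 1.23, against 0.10 and 0.21 for all genes kept in WT and double mutant libraries alone. Of the 14 tested members outside the array, 6 rose and 1 fell for pnet2_a and 9 rose and 1 fell for pnet2_b. Without the 4 of them that passed the filter only through triple mutant libraries, 3 of 10 rose for pnet2_a and 5 of 10 for pnet2_b, with medians of 0.09 and 0.43, so that for pnet2_a these members were near all genes. The difference between array and other members was not tested.

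**Figure D3:**
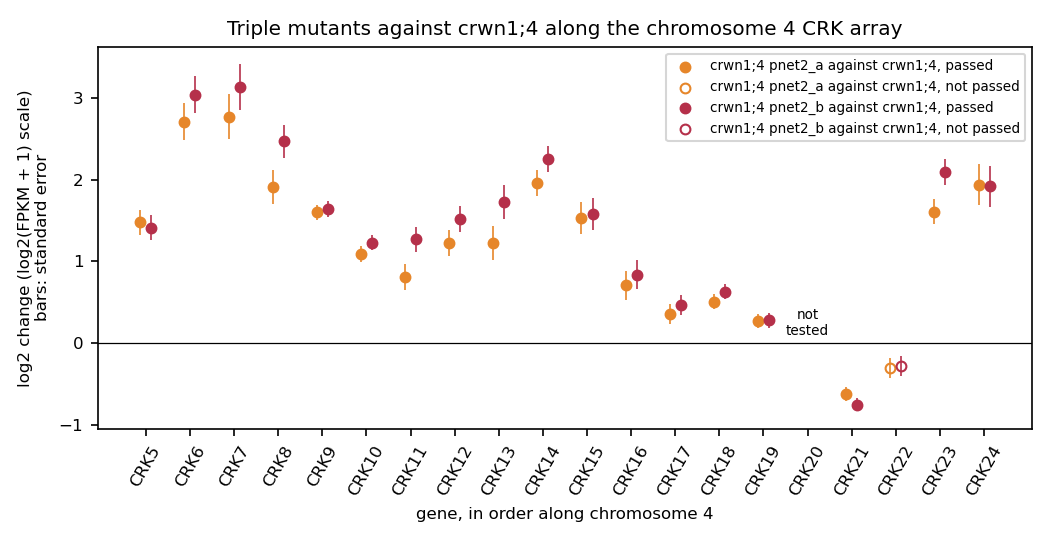
Log2 change with its standard error for the 19 tested members of the tandem array in gene order along chromosome 4, for each triple mutant against the double mutant, with the place of the untested CRK20 left without points. CRK6 and CRK7 are highest, CRK16 to CRK19 lie between 0.27 and 0.84, and CRK23 and CRK24 are between 1.61 and 2.09. CRK21 and CRK22 lie below 0, CRK22 with open points because it did not pass.

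Of the 5 members from CRK36 to CRK40, 4 rose with pnet2_a and 5 with pnet2_b, but all except CRK40 passed the filter only through triple mutant libraries. CRK36 (AT4G04490), known to work with the cytoplasmic kinase BIK1 in immunity, stood at 0.351, 0.0 and 0.491 FPKM in WT and 0.513, 0.959 and 1.94 FPKM in the double mutant. It reached 9.42, 9.77 and 9.09 FPKM in the pnet2_a triple and 12.2, 12.8 and 15.6 FPKM in the pnet2_b triple, with log2 changes of 2.34 and 2.81 (SE 0.21, limma adjusted p = 1.95e-06 and 2.04e-07). CRK37, at 0.602, 0.475 and 0.894 FPKM in the double mutant, reached 4.83, 4.34 and 5.11 FPKM and 5.8, 7.48 and 8.51 FPKM, log2 changes of 1.80 and 2.31 (SE 0.155, limma adjusted p = 1.4e-06 and 9.18e-08). In both genes each triple mutant was separate from the double mutant.

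CRK40 (AT4G04570), an abundant member, stood at 15.3, 18.7 and 18.1 FPKM in WT, 22.3, 19.3 and 25.8 FPKM in double mutant leaves, 33.4, 31.8 and 32.0 FPKM in the pnet2_a triple and 35.9, 36.6 and 37.7 FPKM in the pnet2_b triple. Its change in the double mutant against WT, 0.35, did not pass (limma adjusted p = 0.0737), and in the triple mutants it rose by 0.52 and 0.69. CRK38 (AT4G04510) rose by 1.37 and 1.65. CRK39 (AT4G04540), at 0 in WT and the double mutant, stood at 0.875, 0.516 and 0.0 FPKM in the pnet2_a triple, which did not pass, and at 1.35, 1.18 and 1.6 FPKM in the pnet2_b triple, which did (limma adjusted p = 0.000476). In CRK39, 5.38% of the 50-base stretches in exons had an exact match elsewhere, mostly in CRK40. Whether reads of the more abundant CRK40 add to the low values of CRK39 was not tested.

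Of the members from CRK30 to CRK34, only CRK30 and CRK34 were high enough to test. CRK31 (AT4G11470) and CRK33 (AT4G11490) were at 0 in every library, and CRK32 (AT4G11480) was at 0.306 FPKM in 1 library of the pnet2_a triple and at 0 in the others. CRK30 (AT4G11460) went from 2.2 ± 0.671 FPKM in WT to 0.916 ± 0.129 FPKM in the pnet2_b triple (SD, n = 3), but no change between the genotypes compared passed. CRK34 (AT4G11530) passed for pnet2_b alone, with a log2 change of 0.51 (limma adjusted p = 0.0227) that did not pass in 5 of the 21 alternative analyses that tested it. Among members elsewhere, CRK1 (AT1G19090) and CRK25 (AT4G05200) were at 0 throughout, and CRK26 (AT4G38830) and CRK27 (AT4G21230) were at 0 in WT and the double mutant and reached at most 0.604 and 0.526 FPKM in the triple mutants.

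CRK4, outside the array on chromosome 3, had levels near those of CRK6 in the triple mutants. It stood at 36.0, 39.4 and 42.5 FPKM in the pnet2_a triple and 52.1, 58.0 and 57.9 FPKM in the pnet2_b triple, against at most 16.8 FPKM in the double mutant. The log2 changes were 1.61 and 2.11 (SE 0.146, limma adjusted p = 2.17e-06 and 1.14e-07). CRK2 (AT1G70520) rose from 12 ± 0.533 FPKM in the double mutant to 17.4 ± 1.37 and 19.3 ± 0.332 FPKM (SD, n = 3), by 0.49 and 0.64. CRK28 (AT4G21400), known to associate with the co-receptor BAK1 and the flagellin receptor FLS2, stood at 3.94 ± 0.519 FPKM in double mutant leaves, 3.86 ± 0.521 in the pnet2_a triple and 5.33 ± 0.288 in the pnet2_b triple, and CRK29 (AT4G21410) at 5.09 ± 0.288, 4.11 ± 0.632 and 4.74 ± 0.914 FPKM (SD, n = 3). Neither passed in any comparison, and they share bases.

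CRK42 (AT5G40380), the member on chromosome 5, was the other one that fell. It stood at 5.89, 8.99 and 7.27 FPKM in WT, 9.19, 9.2 and 8.74 FPKM in double mutant leaves, 3.71, 5.28 and 5.12 FPKM in the pnet2_a triple and 5.2, 5.37 and 4.2 FPKM in the pnet2_b triple. All triple mutant libraries were below those of WT and the double mutant. The log2 changes were -0.83 and -0.77 (SE 0.146, limma adjusted p = 0.000644 and 0.000732). AT5G40382 overlaps CRK42 on the opposite strand. CRK41 stood at 7.65, 7.41 and 8.13 FPKM in the pnet2_a triple and 7.99, 7.97 and 9.72 FPKM in the pnet2_b triple, and changes of 0.06 and 0.18 against the double mutant did not pass (limma adjusted p = 0.803 and 0.33).

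**Figure D4:**
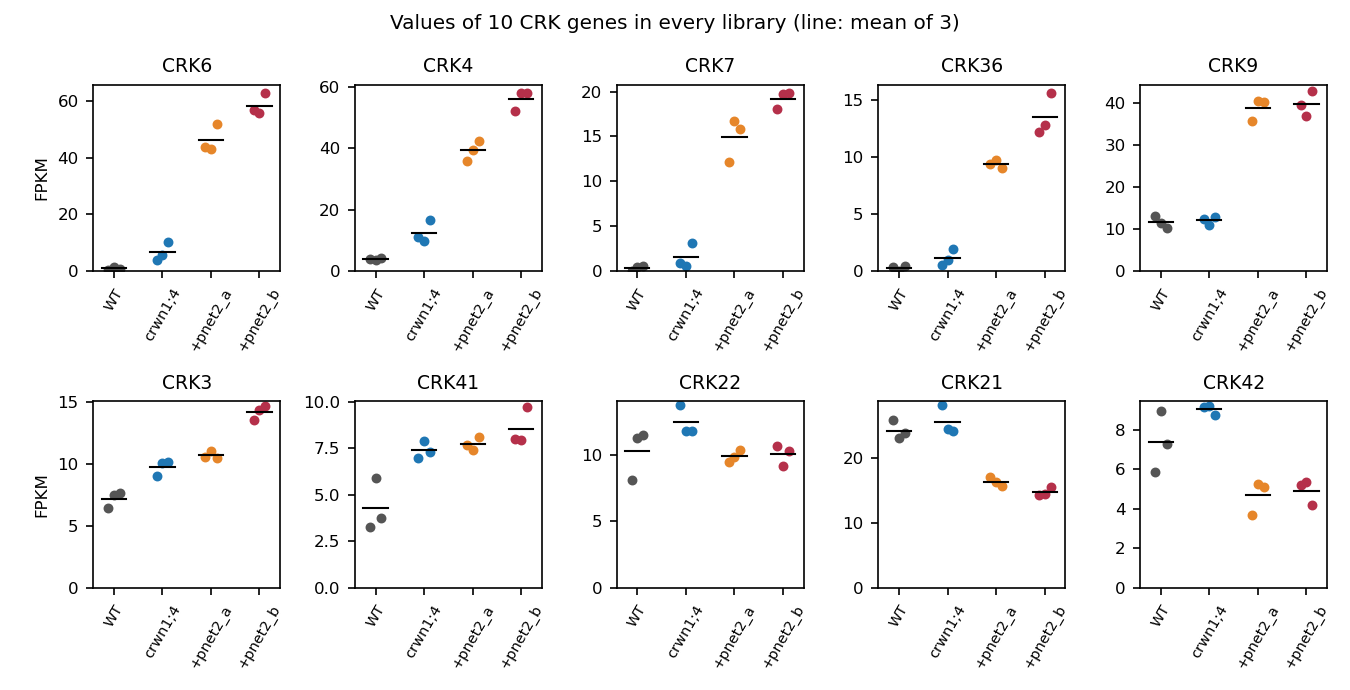
FPKM of 10 CRK genes in every library of the 4 genotypes, on linear axes from 0, with a line at the mean of 3. CRK6, CRK4, CRK7 and CRK36 rise to their highest values in the pnet2_b triple, CRK41 is separate from WT already in the double mutant, and CRK21 and CRK42 are lowest in the triple mutants.

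The patterns over the comparisons fell into a few kinds. Of the 33 members, 17 rose in both triple mutants against the double mutant and did not pass in the double mutant against WT, and 6 rose in all 3 of these comparisons (CRK4, CRK6, CRK14, CRK18, CRK23 and CRK37). Of the 17, CRK7, CRK8, CRK13, CRK15, CRK24, CRK36 and CRK38 passed the filter only through triple mutant libraries, as did CRK23 and CRK37 of the 6. Shares of all genes with each pattern were not counted, so how common the patterns are over all genes is not known. In the single comparisons 2.41% of all genes rose in the double mutant against WT, 22.9% for pnet2_a and 38.8% for pnet2_b. CRK41 rose in the double mutant against WT and in no later comparison, and CRK3 rose in the double mutant against WT and again for pnet2_b. CRK21 and CRK42 fell in both triple mutants. CRK34 and CRK39 passed for pnet2_b and not for pnet2_a, but their difference between the triple mutants did not pass (limma adjusted p = 0.401 and 0.0915). CRK22, CRK28, CRK29 and CRK30 passed in none.

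The triple mutants were then compared with each other, which tests whether pnet2_a and pnet2_b differed in effect on this background. In the pnet2_b triple against the pnet2_a triple, 1 member rose and 0 fell by limma, against 2.12% and 0.754% of all genes tested. At an unadjusted p below 0.05 it was 9 up and 0 down, against 3450 up and 611 down of all 19110 genes tested. Of the 23 members kept without the triple mutant libraries, 3 had such a p in either direction, against 3872 of 17904 genes. The median change was 0.14 for the 23 members that passed the filter without the triple mutant libraries and 0.11 for all genes kept that way. The member was CRK3, at 10.6, 11.1 and 10.5 FPKM in the pnet2_a triple and 13.6, 14.4 and 14.7 FPKM in the pnet2_b triple, groups that did not overlap. Its change was 0.37 ± 0.088 (SE, limma adjusted p = 0.039). Against the double mutant it did not pass for pnet2_a (0.12) and rose by 0.50 for pnet2_b (limma adjusted p = 0.00042). Median-ratio scaling and quantile normalization left no member past the threshold, and CRK3 was also lost without any 1 of the 6 triple mutant libraries. CRK4 had a larger difference, 0.50 ± 0.146, which did not pass (limma adjusted p = 0.0817).

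**Figure D5:**
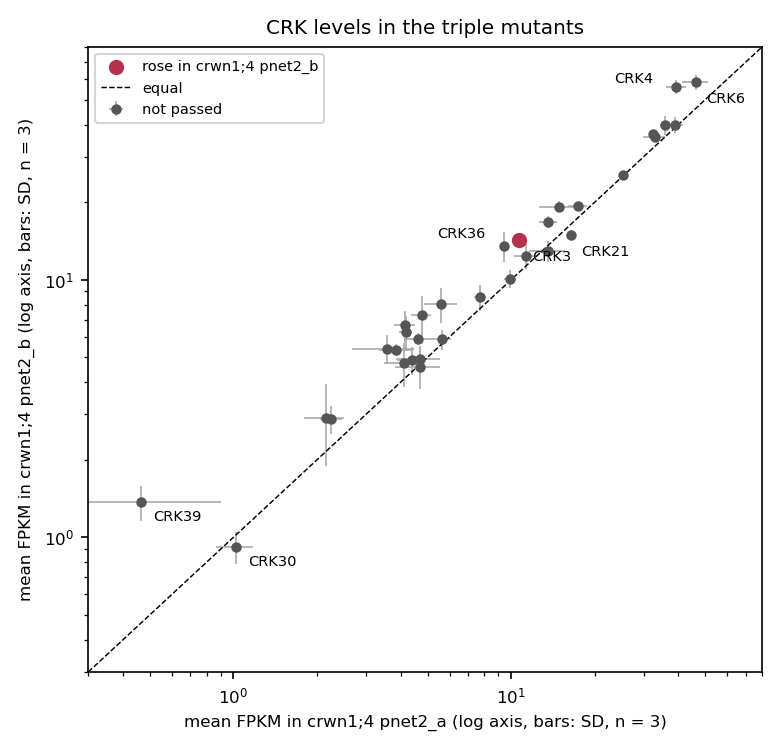
Mean FPKM of the 33 tested CRK genes in the pnet2_a triple (horizontal) and the pnet2_b triple (vertical), on log axes with SD bars of 3 libraries and a dashed line of equal levels. Most points lie on or a little above the line, and CRK3 is the one that passed the test.

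Genes around the CRK family were read from lists of related proteins and partners. Among 9 tested relatives with DUF26 domains but no kinase, the plasmodesmata-located PDLP proteins and small secreted proteins, 3 rose and 1 fell for pnet2_a and 3 rose and 0 fell for pnet2_b, with list medians of 0.19 and 0.14. Over all genes tested 22.9% and 38.8% rose, with medians of 0.11 and 0.23, so the list was near all genes for pnet2_a and below them for pnet2_b. AT3G22060 went from 7.94 ± 1.79 FPKM in the double mutant to 12.7 ± 0.989 and 18.2 ± 2.48 FPKM and AT5G48540 from 6.69 ± 2.06 to 12 ± 0.342 and 15.9 ± 2.26 FPKM (SD, n = 3). PDLP5, which is known to close plasmodesmata under salicylic acid, rose from 2.09 ± 0.358 to 4.29 ± 0.987 and 4.59 ± 0.235 FPKM. PDLP3 fell for pnet2_a, from 15.8 ± 1.61 to 11.1 ± 1.24 FPKM. After quantile normalization 3 relatives fell for pnet2_b and the list median there was -0.17. AT5G48540 alone rose in the double mutant against WT, by 1.05 (limma adjusted p = 0.00335).

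Of 12 tested partners of receptor kinases and genes of the oxidative burst, 0 passed in the double mutant against WT. There 3 had an unadjusted p below 0.05, against 3314 of all 19110 genes. Of the 12, 8 rose for pnet2_a and 11 for pnet2_b. Their medians were 0.59 and 0.67. Over all genes the medians were 0.11 and 0.23, and 22.9% and 38.8% rose. RBOHD rose from 12.6 ± 0.582 FPKM to 22.4 ± 1.0 and 23.1 ± 1.2 FPKM (SD, n = 3, log2 changes 0.78 and 0.82). The mitogen-activated kinase MPK3 rose from 35.5 ± 6.35 to 70.3 ± 3.72 and 77 ± 5.47 FPKM, the BIK1 homologue PBL1 from 10.5 ± 0.843 to 20.9 ± 1.91 and 22.2 ± 1.65 FPKM, and the calcium-dependent kinase CPK5 from 33.2 ± 2.88 to 53.0 ± 2.68 and 54.8 ± 1.13 FPKM. FLS2 was the member that did not pass for pnet2_b, at 5.85 ± 0.242, 4.96 ± 0.779 and 6.16 ± 0.063 FPKM. Under median-ratio scaling the counts were 8 up and 1 down for pnet2_a and 9 up for pnet2_b.

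All 11 WRKY factors of the list rose in each triple mutant against the double mutant, and 4 rose in the double mutant against WT. Of the 11, WRKY40 and WRKY62 passed the filter only through triple mutant libraries, and the other 9 had medians of 1.76 and 2.08. For this list and those that follow, the shares of all genes that rose were again 22.9% and 38.8% in the triple mutants, and 2.41% in the double mutant against WT. WRKY46 went from 3.79 ± 1.63 FPKM in the double mutant to 24.9 ± 3.79 and 41.1 ± 6.25 FPKM, WRKY53 from 4.34 ± 1.26 to 24.4 ± 3.8 and 29.9 ± 2.84 FPKM, WRKY38 from 2.16 ± 0.63 to 17.9 ± 2.88 and 19.9 ± 2.1 FPKM, and WRKY70 from 34.2 ± 8.5 to 115.7 ± 5.19 and 145.3 ± 11.7 FPKM (SD, n = 3). Of 6 salicylic acid markers, 5 rose in the double mutant against WT and 6 in each triple mutant. PR1, a defence protein gene that salicylic acid induces, stood at 3.33 ± 3.87 FPKM in WT, 44.7 ± 23.4 in double mutant leaves, 608.6 ± 89.6 in the pnet2_a triple and 661.6 ± 134.1 in the pnet2_b triple (SD, n = 3). CBP60G, an activator of salicylic acid synthesis, stood at 1.71 ± 0.105, 5.42 ± 1.06, 19.0 ± 2.49 and 26.0 ± 0.935 FPKM in the same order. ICS1, the synthesis enzyme, was the marker that differed between the triple mutants, at 18 ± 0.999 and 31.2 ± 4.07 FPKM (log2 change 0.76, limma adjusted p = 0.0242). The wall-associated kinases, another receptor kinase family in a tandem cluster, gave 3 rises of 3 tested in each triple mutant. WAK3 passed the filter only through triple mutant libraries, and the other 2 listed genes were at 0. WAK1 went from 24.3 ± 7.42 FPKM in the double mutant to 106.1 ± 3.23 and 116.6 ± 11.2 FPKM. The WRKY, salicylic acid and wall-associated kinase counts were the same under each scaling tried.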

How the data were processed

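The authors deposited a table of 1 FPKM value per gene and library, made from leaf messenger RNA. RNA came from some 50 mg of leaf and libraries were strand-specific, per the labels' protocols. The submitters' processing notes name HISAT2 2.0.4 and the TAIR10 genome. The sources used here do not give the counting program, the annotation or whether strand was used. Low values (under 0.8 FPKM, 749 to 955 genes in each of 12 library pairs within a genotype) were searched for the fixed ratios that whole reads would leave. No log2 step of 0.01 held over 1.79% of ratios, so depth is unknown. Values above 0 began at 0.293 to 0.336 FPKM.

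Genes reaching 1 FPKM in 3 or more of 12 libraries were tested with limma 3.58.1 (R 4.3.3), fitting log2(FPKM + 1) by genotype with an intensity trend and 8 residual degrees of freedom. P-values were adjusted over 19110 genes (Benjamini-Hochberg, threshold 0.05). The procedure was tested on simulated data. Members and lists were chosen with earlier results of these data known. Every library's value is given for up to 8 members a comparison with the largest passing changes and a genotype mean of at least 5 FPKM, for those that fell and for the 5 with the highest means. CRK22 and CRK39 were added after their values were seen. Other lists are shown by up to 4 genes with the smallest adjusted p, and FLS2 and PDLP3 as single exceptions. Of 76 list entries, 74 had the listed name in the reference. Alternatives were other pseudocounts, filters and scalings, no trend, a fit on the 2 genotypes compared, a replicate block and leaving out each library. Sequences came from RefSeq TAIR10.1 with Biopython 1.88, and figures from matplotlib 3.10.9 in Python 3.11.15.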

Additional observations from a re-analysis of the deposited data

How the results depend on the processing

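No call on a CRK gene changed sign under any alternative tried. Of the 25 calls for pnet2_a against the double mutant, 23 held under every alternative that tested the gene, and of the 28 for pnet2_b 25 did. CRK17 and CRK19 were the exceptions in both and CRK34 for pnet2_b. Among the calls that held, those of CRK13, CRK16, CRK24, CRK38 and, for pnet2_b, CRK39 were not tested at a filter of 5 FPKM. The 8 rises in the double mutant against WT became 0 in a fit on those 2 genotypes, 4 with a pseudocount of 5 and 5 after quantile normalization, and 3 to 9 when 1 library was left out. Falls for pnet2_a were 4 after quantile normalization, and falls for pnet2_b were 4 under median-ratio scaling and 5 after quantile normalization, with CRK22, CRK29 and CRK30 as the added genes. Over all 19110 genes the falls were 3086, 3426 and 3787 in the same order, so these added falls came with many others. The single rise of the pnet2_b over the pnet2_a triple mutant became 0 under median-ratio scaling, quantile normalization or no intensity trend, 6 with a pseudocount of 5, 5 in the fit on those 2 genotypes, and 0 to 2 when 1 library was left out. At a filter of 5 FPKM the rises were 8, 19, 20 and 1, with fewer members tested, and with no filter 8, 24, 27 and 1. With the replicate block the rises were 7, 23, 26 and 1 and the falls 0, 2, 2 and 0, with CRK18 lost in the double mutant against WT. Deviations of libraries with the same number correlated at -0.0842 to 0.0678, so the numbers were not taken to pair the samples. Apart from these statements the cause of the changes was not tested. Unknown depth limits what can be said of the 8 members too low to test.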
